A study of Mus musculus with 6 samples.

Results

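The genes described here build, move along or regulate microtubules: tubulins, kinesins and their light chains, cytoplasmic dynein and dynactin subunits, stathmins, and microtubule-associated and end-binding proteins. They were chosen by gene symbol (Tuba to Tube, Kif, Klc, Dync1, Dynl, Dctn, Stmn, Map1, Map4, Map7, Mapre and Mapt). That took 82 of the 12151 genes listed in the table. The symbols and the roles were set with earlier results of these data known. RNA was sequenced from cultured mouse glioma cells in 2 forms, with 3 libraries each. The mNS cells, labelled as stem-like glioma cells, were grown as neurospheres in serum-free medium with B-27, EGF, basic FGF and heparin, and were sampled at passages 72, 77 and 85. The GL261 cells, a mouse glioma line labelled as differentiated glioma cells, were grown with 10% fetal bovine serum and sampled at passages 17, 33 and 34. Both forms were harvested in log phase, and neither carries a genetic change or an added drug by its labels. Medium, growth form and passage range all differ between the groups and cannot be told apart. For the last GL261 library the title gives passage 34 and the passage field 33.

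Microtubules are hollow polymers of paired alpha- and beta-tubulin, each encoded by several genes whose proteins differ mostly in a short acidic tail at the C-terminus. Gamma-tubulin starts new microtubules. Kinesins are motors that mostly walk towards the growing end: one set builds and pulls apart the mitotic spindle, and another carries vesicles, organelles and cilium parts. Cytoplasmic dynein, activated by dynactin, carries cargo the other way. Stathmins bind free tubulin, while proteins such as tau coat and steady the polymer. In the nervous system the class III beta-tubulin Tubb3 and tau are both widely used as neuronal markers, and Tuba1a is the main alpha-tubulin of the developing brain.

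Levels are given in CPM, read numbers scaled by library size and by a further normalisation factor of the authors (TMM). The columns therefore sum to 968335 to 969269 CPM in mNS libraries and 1027692 to 1037864 CPM in GL261 libraries. Each library had 12534422 to 14225175 reads in the listed genes, so that 1 read was worth 0.0708 to 0.0773 CPM. Differences are mNS minus GL261 on the log2(CPM + 1) scale with their standard error, and folds are ratios of mean CPM. For genes with few reads that scale makes a change look smaller than it was. A gene was called at a Benjamini-Hochberg adjusted p under 0.05 in limma's two-sided test, adjusted over all 12006 genes whose mean reached 1 CPM. By title each library of a group is a different passage of the same form, and no label names independent cultures. The p-values thus cover the spread among 3 passages, which may not be independent. Of the 82 members 81 were tested. In bulk RNA, fewer cells of a type and less RNA per cell cannot be told apart.

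Of the 81 tested members, 20 were called higher and 34 lower in mNS cells, and 27 were not called. Across all tested genes 64.3% were called, 32.2% higher and 32.1% lower, so the total of 54 called members (66.7%) lay near the background. The groups did not overlap for 59 members (72.8%), against 69.9% of all genes. A called difference of at least 1 log2 unit was found for 15 members (18.5%), 11 higher and 4 lower, against 19.7% of all genes (11.3% higher and 8.47% lower). The median difference over the members was -0.12, and over all tested genes -0.0027.

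**Figure D1:**
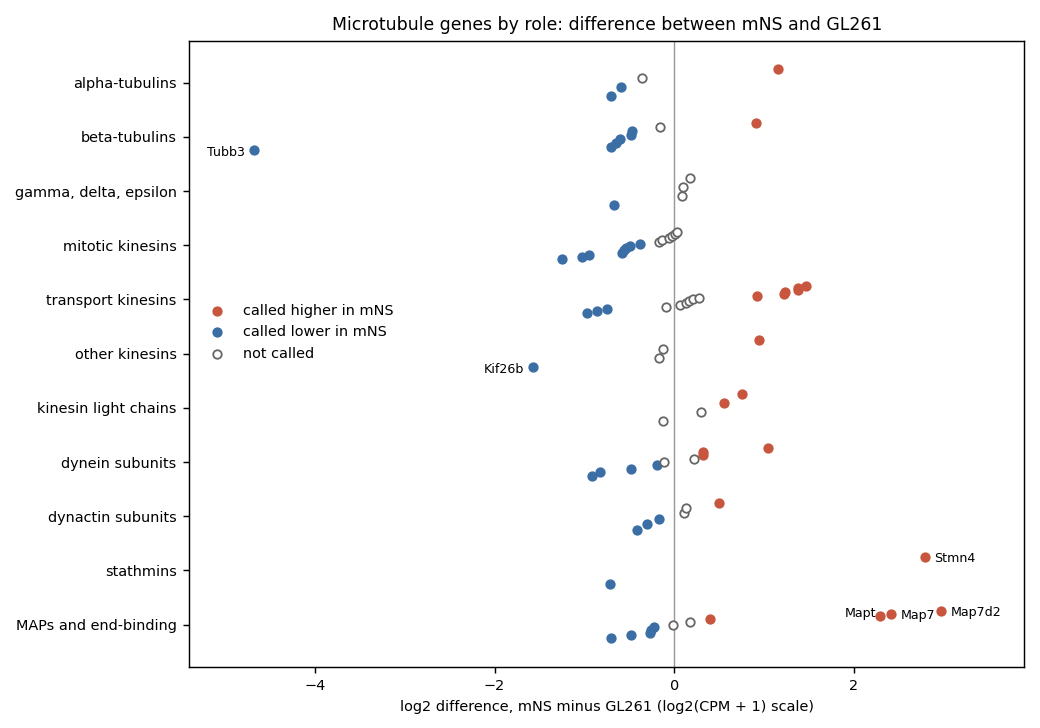
Difference between mNS and GL261 cells for each tested member, by role, in log2 units on the log2(CPM + 1) scale; filled points were called (red higher, blue lower in mNS cells) and open points were not. Tubb3 lies far to the left of the other members at -4.68, and Stmn4, Map7, Map7d2 and Mapt lie between 2.29 and 2.98.

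Among the alpha-tubulins, Tuba1a rose in mNS cells while Tuba1b and Tuba1c fell. Tuba1a, on chromosome 15 (98949837 to 98953703, minus strand, GENCODE M21 on GRCm38), had 1053, 1154 and 1236 CPM in mNS libraries, against 518, 521 and 502 CPM in GL261 libraries. The lowest mNS library lay above the highest GL261 library by a wide margin. The difference was 1.16 ± 0.07, a 2.24-fold rise, with an adjusted p of 1.49e-06 in limma. Tuba1b, a broadly expressed alpha-tubulin, had 197, 233 and 256 CPM in mNS libraries and 316, 356 and 358 CPM in GL261 libraries (-0.59 ± 0.10, adjusted p 0.000844). Tuba1c, a close relative of it, had 113, 132 and 145 CPM in mNS libraries and 195, 214 and 225 CPM in GL261 libraries (-0.70 ± 0.10, adjusted p 0.00029). For both genes the groups were separate. Tuba4a was not called, with a mean of 9.71 ± 1.63 CPM in mNS cells and 12.6 ± 1.19 CPM in GL261 cells (SD, n = 3 each, adjusted p 0.0541), although its libraries did not overlap; without the passage 77 mNS library the adjusted p was 0.0416.

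The alpha-tubulins can be told apart only in part by a read of 100 bases. Over the whole coding sequence Tuba1a and Tuba1b were 98.3% identical, Tuba1a and Tuba1c 97.1%, and Tuba1b and Tuba1c 97.9%. Of all 100-base windows of the transcript, 65.9% for Tuba1a, 73.0% for Tuba1b and 53.4% for Tuba1c also occurred in another annotated gene. The sources used here do not say how the authors counted such reads, so the split among these 3 genes is uncertain. A shift of reads between them was not tested, and the 3 genes differed in opposite directions.

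Per kilobase of exon, the unit used below to compare genes with each other, the 4 alpha-tubulins summed to 818 ± 74.1 CPM per kb in mNS cells and 564 ± 16.8 in GL261 cells (SD, n = 3 each). Tuba1a made up 78.9%, 77.6% and 77.2% of that sum in mNS libraries, against 52.7%, 50.2% and 48.7% in GL261 libraries. The groups lay 27.3 percentage points apart, with SDs of 0.890 and 2.02 points. Tuba1b held 14.9% in mNS cells and 32.5% in GL261 cells. Tuba1c held 6.94% in mNS cells and 16.4% in GL261 cells. These shares are descriptions with no test: with 3 libraries a group no permutation of them could fall below 0.05.

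Among the 8 beta-tubulin genes 87.5% were called, against 64.3% of all tested genes. Of the 8, which include the processed pseudogene Tubb2a-ps2, 6 fell (Tubb2a-ps2 among them), against 32.1% of all tested genes called lower. Tubb4a rose and Tubb5 was not called. The 8 summed to 1228 ± 138 CPM per kb in mNS cells and 1709 ± 104 in GL261 cells, opposite in direction to the alpha-tubulin sum. The sum, the shares and the passage counts below include Tubb2a-ps2. It held 5.20% of the sum in mNS cells and 5.67% in GL261 cells. Tubb3, the class III beta-tubulin of chromosome 8 (123411424 to 123422015, plus strand), had 13.4, 8.51 and 4.60 CPM in mNS libraries, against 247, 223 and 232 CPM in GL261 libraries. The highest mNS library was far below the lowest GL261 library, and the mNS libraries themselves differed, with the level at passage 85 the lowest of them. The difference was -4.68 ± 0.28 with an adjusted p of 1.79e-06 in limma, a 26.4-fold lower mean in mNS cells and the largest difference of any tested member.

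Tubb5, the ubiquitous class I beta-tubulin, was the most abundant beta-tubulin per kilobase in both forms. It had 1866, 2164 and 2290 CPM in mNS libraries and 2279, 2283 and 2470 CPM in GL261 libraries. The groups overlapped, and the difference of -0.16 ± 0.08 was not called (adjusted p 0.125). Tubb6, a class V beta-tubulin, had 267, 354 and 358 CPM in mNS libraries and 451, 552 and 590 CPM in GL261 libraries, and fell (-0.70 ± 0.13, adjusted p 0.00166).

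The class II pair Tubb2a and Tubb2b, which lie next to each other on chromosome 13, fell together. Tubb2b had 269, 326 and 316 CPM in mNS libraries and 421, 517 and 489 CPM in GL261 libraries (-0.65 ± 0.10, adjusted p 0.00046). Tubb2a had 154, 206 and 220 CPM in mNS libraries and 247, 271 and 280 CPM in GL261 libraries (-0.47 ± 0.12, adjusted p 0.00951). In neither gene did the groups overlap. Their processed pseudogene Tubb2a-ps2 (-0.60) and the broadly expressed Tubb4b (-0.48) also fell. Tubb4a, known as a tubulin of myelinating glia, rose at a low level, with a mean of 9.40 ± 1.34 CPM in mNS cells and 4.53 ± 0.799 CPM in GL261 cells (SD, n = 3 each; 0.91 ± 0.16, adjusted p 0.000923).

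The last 60 coding bases of 5 beta-tubulins, from the GENCODE M21 transcripts on GRCm38 and ending in the stop codon, are given with capitals for bases that differ from Tubb5, or have no partner there, in a pairwise alignment. They are shown because they carry the acidic tail by which the proteins differ most.
Tubb5: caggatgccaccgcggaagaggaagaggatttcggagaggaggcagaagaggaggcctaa
Tubb3: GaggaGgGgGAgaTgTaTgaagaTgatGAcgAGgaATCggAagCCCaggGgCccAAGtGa
Tubb2a: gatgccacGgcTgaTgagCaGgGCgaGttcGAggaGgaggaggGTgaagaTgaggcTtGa
Tubb2b: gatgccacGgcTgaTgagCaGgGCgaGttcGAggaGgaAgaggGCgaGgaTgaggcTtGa
Tubb4b: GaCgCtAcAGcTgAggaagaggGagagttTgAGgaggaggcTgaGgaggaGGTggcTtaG
Tubb3 differed from Tubb5 at 26 of these 60 bases, more than Tubb2a (16), Tubb2b (18) or Tubb4b (19). Over the whole coding sequence Tubb3 and Tubb5 were 81.5% identical and Tubb2a and Tubb2b 96.5%. No 100-base window of Tubb3 or Tubb5 occurred in another annotated gene. The shared percentages were 36.9% for Tubb2a, 27.8% for Tubb2b and 30.6% for Tubb4b, so reads could be split among these genes and their pseudogenes.

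As shares of the beta-tubulin sum per kilobase, Tubb5 held 52.3%, 50.8% and 51.7% in mNS libraries, against 42.8%, 39.9% and 41.1% in GL261 libraries, a difference of 10.3 percentage points. Tubb3 held 0.404% ± 0.247 in mNS cells and 7.36% ± 0.774 in GL261 cells (SD, n = 3 each). Its share was thus 6.95 points smaller in mNS cells, where it was a trace isotype. Tubb6 and Tubb2b held smaller shares too, by 1.85 and 1.34 points, while the shares of Tubb4b and Tubb2a moved by less than the SD of either group.

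**Figure D2:**
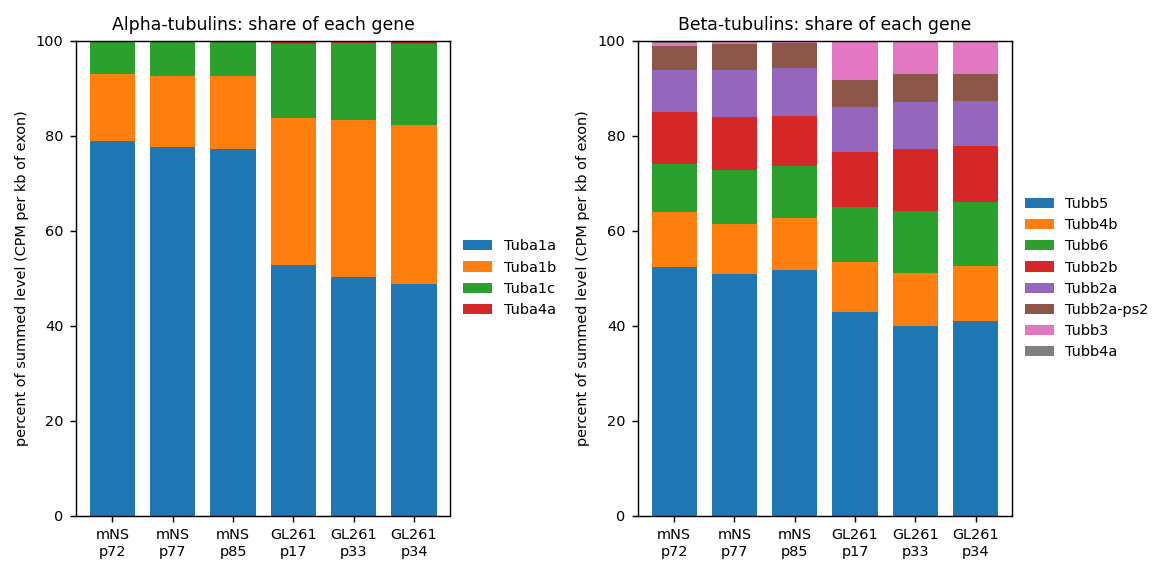
Share of each gene in the summed alpha-tubulin (left) and beta-tubulin (right) level in each library, in percent of CPM per kilobase of exon, with the passage under each bar. Tuba1a takes 77.2% to 78.9% of the alpha-tubulin bars of mNS libraries against 48.7% to 52.7% in GL261 libraries, and the band of Tubb3 is visible in GL261 libraries at 6.86% to 8.25%.

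Tubb3 did not move with the other neuronal markers that were listed. Of 11 neuron markers 3 were in the table: Gap43, a growth cone protein, rose by 5.73 ± 0.14 log2 units (adjusted p 1.7e-08), the glycolytic enzyme Eno2 rose by 0.77 (adjusted p 0.000845), and the synaptic vesicle protein Syn1 was not called (-0.07). The 3 summed to between 257 and 334 CPM in mNS libraries and between 16.7 and 19.7 CPM in GL261 libraries. Dcx, Rbfox3, Snap25, Syp, Nefl, Nefm, Elavl3 and Elavl4 were not listed. Of 6 glioma and neural stem markers, Olig2 (5.57) and Fabp7 (4.53) rose, Vim (-0.98), Nes (-0.69) and Gfap (-1.93) fell, and Sox2 was not called (0.05). The fold of mNS over GL261 for Fabp7 was 27.7, or 42.7 without the passage 17 GL261 library. For Gfap, at 5.06 CPM or below in every library, it was 0.0293, or 0.0112 without the passage 72 mNS library. The part of cell state or cell mixture in the tubulin differences was not tested.

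Of the 4 minor tubulins of centrosomes and centrioles, 1 fell and 3 were not called (25% called, against 64.3% of all tested genes). Tubg1, the main gamma-tubulin, had 50.4, 65.0 and 74.3 CPM in mNS libraries and 57.2, 58.2 and 60.03 CPM in GL261 libraries, and was not called (0.09 ± 0.13, adjusted p 0.542). Its mNS libraries spanned the whole GL261 range, and without the passage 72 mNS library the difference was 0.25 (adjusted p 0.0324). Tube1, epsilon-tubulin, had 23.2, 25.8 and 23.2 CPM in mNS libraries and 24.4, 19.1 and 20.4 CPM in GL261 libraries, with overlap and no call (0.18 ± 0.11, adjusted p 0.197, and 0.0401 without the passage 17 GL261 library). Tubg2 was not called either (0.08), and Tubd1, delta-tubulin, fell by 0.67 ± 0.15 (adjusted p 0.00359).

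The alpha- and beta-tubulins also varied together among the mNS libraries. The passage 72 library was the lowest of the 3 mNS libraries for 10 of the 12 genes (83.3%), which was so for 40.5% of all tested genes. In 8 of the 12 (66.7%) the level at passage 72 was below that at passage 77, which was below that at passage 85, against 27.3% of all tested genes; Tubb3 ran the opposite way. In GL261 cells 8 of the 12 (66.7%) were lowest at passage 17, against 40.7% of all tested genes. Each passage is 1 library, so passage and library cannot be told apart, and these counts carry no test.

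**Figure D3:**
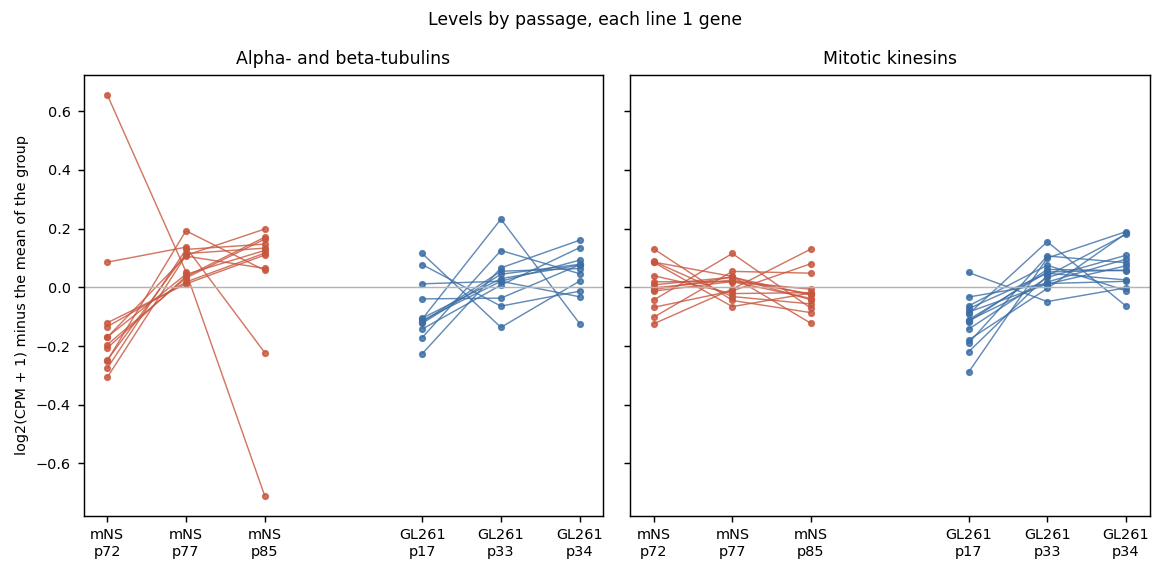
Level of each alpha- and beta-tubulin (left) and each mitotic kinesin (right) in every library, as log2(CPM + 1) minus the mean of its own group, with 1 line per gene and group and the passage on the axis. Most tubulin lines of mNS cells start below 0 at passage 72 and Tubb3 starts far above, while 13 of the 14 mitotic kinesins are lowest at passage 17 in GL261 cells.

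The 14 mitotic kinesins gave 8 that fell and 6 that were not called in mNS cells, with a median difference of -0.44. The share called, 57.1%, was below the 64.3% of all genes called in either direction. All of these calls were lower, against 32.1% of all genes called lower. The number called higher was 0, against 32.2% of all genes. The 8 calls and the 0 higher were the counts of limma, of edgeR's quasi-likelihood test (63.7% of all genes called), of its exact test (64.2%) and of DESeq2 (61.2%), and 0 were higher at an unadjusted p under 0.05 in each of them. Their sum was 268 ± 1.97 CPM per kb in mNS cells and 411 ± 41.7 in GL261 cells (SD, n = 3 each). The largest differences were those of 3 kinesins of cytokinesis. Kif20a, which delivers the chromosomal passenger complex to the central spindle, had 251, 256 and 248 CPM in mNS libraries, against 491, 644 and 685 CPM in GL261 libraries. The mNS libraries were nearly level with each other, while the GL261 libraries varied and all lay above them (-1.25 ± 0.11, 2.41-fold lower, adjusted p 1.96e-05). Exons on the opposite strand, of Cdc23, cover 29.3% of its exon bases, and the sources used here do not say whether the counting used strand.

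Kif23, a subunit of centralspindlin, had 91.3, 87.5 and 87.7 CPM in mNS libraries and 164, 186 and 196 CPM in GL261 libraries (-1.02 ± 0.08, 2.05-fold lower, adjusted p 6.1e-06). Kif14, which acts in cytokinesis with citron kinase, fell by 0.95 ± 0.08 (adjusted p 1.08e-05). No library of either form reached the range of the other form for these genes. Kif2c, a depolymerase that corrects faulty attachments of chromosomes, had 76.6, 83.2 and 91.5 CPM in mNS libraries and 130, 121 and 125 CPM in GL261 libraries (-0.58 ± 0.08, adjusted p 0.000215). The remaining kinesins that fell were the plus-end regulator Kif18b (-0.56), the chromosome-bound Kif22 (-0.54), the spindle kinesin Kif15 (-0.49) and Kifc5b (-0.38), which shares 21.2% of its 100-base windows with Kifc1.

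The other 6 mitotic kinesins were not called. Kif11, which pushes the spindle poles apart, had 283, 283 and 272 CPM in mNS libraries and 269, 301 and 302 CPM in GL261 libraries. The groups overlapped (-0.05 ± 0.06, adjusted p 0.476). Kif18a (0.01), Kif20b (0.04), Kif2a (-0.02), the minus-end directed Kifc1 (-0.13) and the chromosome-bound Kif4 (-0.17, adjusted p 0.0606) also overlapped between the groups. The adjusted p of Kif4 was 0.031 without the passage 72 mNS library and 0.0243 without the passage 17 GL261 library.

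General genes of cell division were read beside these kinesins. Of 23 listed and tested, 16 fell and 2 rose (Cenpe by 0.25 and Mcm2 by 0.14), against 32.1% of all tested genes called lower and 32.2% higher, and their median was -0.45. The call of Mcm2 was lost on leaving out any 1 library, at adjusted p between 0.0578 and 0.107. Ccnb2 and Cenpf gained a call as lower without the passage 17 GL261 library. The cell division genes summed to between 6871 and 7447 CPM in mNS libraries and between 9718 and 10977 CPM in GL261 libraries. Prc1, which bundles the central spindle, fell by 1.33 ± 0.07 (adjusted p 9.34e-07), and Foxm1, a transcription factor of mitotic genes, by 1.02 ± 0.09 (adjusted p 1.38e-05). Within GL261 cells 13 of the 14 mitotic kinesins (92.9%) were lowest at passage 17, against 40.7% of all tested genes. The part of the share of dividing cells in these differences was not tested.

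Promoters of mitotic genes often hold a cell cycle homology region and a CCAAT box near the start of the gene. The letters TTTGAA or TTTAAA, read on both strands, were found between 250 bases before and 50 bases after the start in 11 of 14 RefSeq promoters of the mitotic kinesins (13 genes, 78.6%), in 0 of 10 promoters of the transport kinesins (9 genes), and in 27.6% of all 32851 promoters. CCAAT on either strand was in 8 of the 14 mitotic kinesin promoters (57.1%), in 4 of the 10 transport kinesin promoters and in 37.4% of all promoters. No promoter of Kif20a was among those read, nor of Kif5a, Kif5b, Kif13b, Kif21b, Kifc2 or Kifc3. Kif2a and Kif1b were counted once for each of their listed starts, and the Kif1b windows share their CCAAT matches. The windows of Kifc1 and Kifc5b are close copies of each other. Each holds both motifs and was counted separately. No match of one motif overlaps a match of the other in the stretches below. Part of each promoter is shown for 2 mitotic kinesins that fell (Kif23 and Kif14), 1 that was not called (Kif11) and 1 transport kinesin that rose (Kif3a), from 130 bases before to 20 bases after the start, 5′ to 3′ on the gene's strand, with the matches in capitals. The positions, on RefSeq's GRCm38.p6, are chr9:61946780-61946929 (minus strand) for Kif23, chr1:136467718-136467867 (plus) for Kif14, chr19:37376252-37376401 (plus) for Kif11 and chr11:53567239-53567388 (plus) for Kif3a.
Kif23: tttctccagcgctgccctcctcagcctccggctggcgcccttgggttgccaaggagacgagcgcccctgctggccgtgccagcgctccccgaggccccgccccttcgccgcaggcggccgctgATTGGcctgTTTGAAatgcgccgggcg
Kif14: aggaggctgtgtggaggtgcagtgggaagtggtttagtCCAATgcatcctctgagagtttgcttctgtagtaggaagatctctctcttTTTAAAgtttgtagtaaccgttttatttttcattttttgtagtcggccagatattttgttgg
Kif11: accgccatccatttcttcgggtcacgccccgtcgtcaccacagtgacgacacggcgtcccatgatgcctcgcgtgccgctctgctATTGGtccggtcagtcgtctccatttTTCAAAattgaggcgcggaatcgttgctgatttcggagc
Kif3a: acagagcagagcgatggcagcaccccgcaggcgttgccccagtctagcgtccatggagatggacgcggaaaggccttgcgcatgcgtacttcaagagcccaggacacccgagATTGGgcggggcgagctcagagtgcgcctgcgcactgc
All 3 mitotic kinesins shown hold both motifs in this stretch, the called Kif23 and Kif14 as well as Kif11, and Kif3a holds CCAAT without the other motif. A match describes the letters and is no proof of a bound site. The RefSeq windows of Kif14, Kif2c and Kif4, all counted among the 11, lie wholly inside these genes as annotated in GENCODE M21. Kif14 starts there at 136466343, upstream of the stretch shown, so that stretch may not be the promoter in use.

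The 15 transport kinesins gave 6 that rose, 3 that fell and 6 that were not called (9 of 15 called, median 0.21). The share called was near the 64.3% of all tested genes. Among the heavy chains of conventional kinesin, the neuronal forms rose and the ubiquitous form fell. Kif5c had 109, 105 and 95.8 CPM in mNS libraries and 39.9, 39.7 and 38.3 CPM in GL261 libraries (1.37 ± 0.07, 2.64-fold higher, adjusted p 9.06e-07). Kif5a had 21.7, 19.9 and 17.8 CPM in mNS libraries and 9.47, 6.28 and 8.09 CPM in GL261 libraries (1.23 ± 0.15, 2.49-fold higher, adjusted p 0.000131). Both were higher in every mNS library than in any GL261 library. Kif5b had 459, 404 and 394 CPM in mNS libraries and 723, 798 and 762 CPM in GL261 libraries (-0.86 ± 0.07, 1.82-fold lower, adjusted p 1.36e-05).

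Per kilobase of exon, Kif5b still made up most of the 3 heavy chains in both forms, with 75.7%, 74.2% and 75.6% of their sum in mNS libraries, against 92.9%, 93.9% and 93.6% in GL261 libraries. Kif5c held 20.8% ± 0.761 in mNS cells and 5.40% ± 0.284 in GL261 cells, and Kif5a held 4.05% ± 0.131 in mNS cells and 1.12% ± 0.273 in GL261 cells (SD, n = 3 each). These shares were computed after the values of the 3 genes were seen and carry no test.

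Kif3a, a motor subunit of heterotrimeric kinesin that carries cilium parts, had 90.1, 94.7 and 85.5 CPM in mNS libraries and 33.3, 33.0 and 35.7 CPM in GL261 libraries (1.38 ± 0.07, 2.65-fold higher, adjusted p 9.01e-07). Its partners differed from it: Kif3b (0.16, adjusted p 0.128) and Kif3c (0.21, adjusted p 0.143, and 0.0158 without the passage 17 GL261 library) were not called, and Kifap3, the subunit that joins the pair to cargo, fell by 0.57. Markers of ciliated and ependymal cells were low in both forms: 2 of 7 were listed, with a sum between 5.13 and 6.44 CPM in mNS libraries and between 2.32 and 2.60 CPM in GL261 libraries, and Foxj1 was not listed.

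Kif13b, a plus-end carrier of vesicles, had 136, 131 and 133 CPM in mNS libraries and 52.0, 55.2 and 62.4 CPM in GL261 libraries (1.23 ± 0.08, 2.36-fold higher, adjusted p 2.49e-06), and its relative Kif13a rose by 0.93 ± 0.12 (adjusted p 0.000159). Kif21b, a kinesin of neurons and immune cells, had 22.2, 26.4 and 32.9 CPM in mNS libraries and 14.3, 5.90 and 8.60 CPM in GL261 libraries (1.47 ± 0.27, 2.83-fold higher, adjusted p 0.00139). Its libraries were the most scattered of the transport kinesins that rose, but the groups were separate. The transport kinesins that fell beside Kif5b were Kif1b, which carries mitochondria and synaptic vesicle precursors, and the minus-end directed Kifc3. Kif1b had 254, 232 and 226 CPM in mNS libraries and 423, 401 and 376 CPM in GL261 libraries (-0.75 ± 0.07, adjusted p 2.2e-05). Kifc3 fell by 0.97 ± 0.12 (adjusted p 0.000141), with 27.5% of its exon bases under exons of the opposite strand. Kif1c (-0.09), Kif21a (0.06), Kif16b (0.13) and Kifc2 (0.28), the last at under 3 CPM, were not called.

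**Figure D4:**
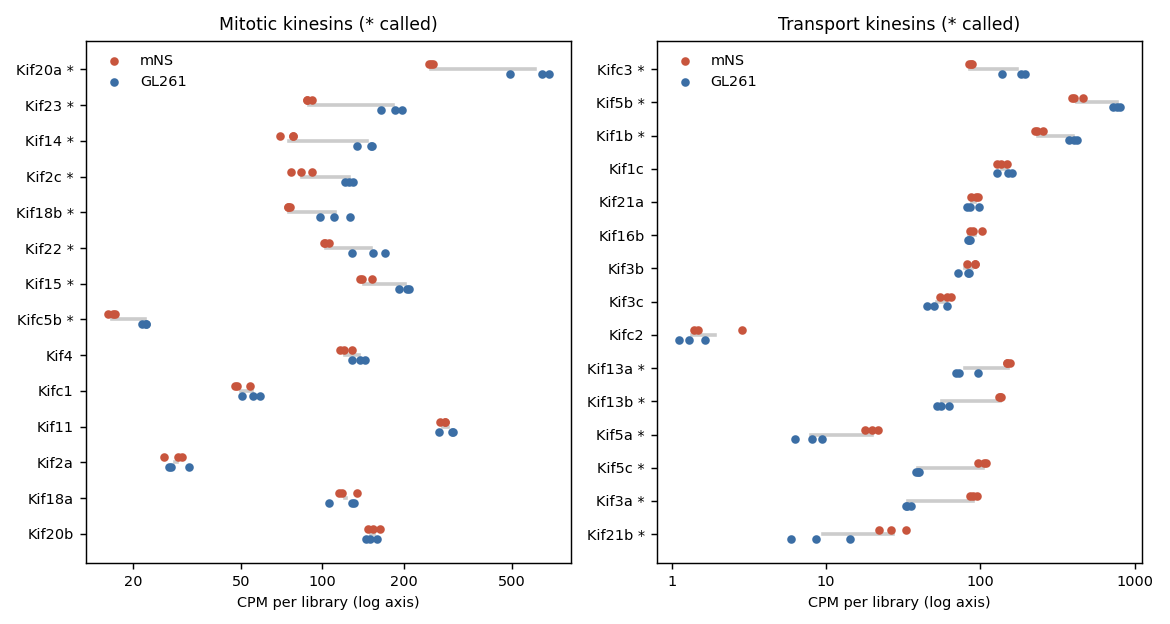
Level of each mitotic (left) and transport (right) kinesin in every library, in CPM on a log axis, with mNS points above GL261 points in each row, grey bars between the group means and an asterisk for called genes. The called mitotic kinesins all lie to the left in mNS cells, while the transport kinesins hold both directions, from Kifc3, Kif5b and Kif1b at the top to Kif5c, Kif3a and Kif21b at the bottom.

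The other kinesins were 4. Kif24, which acts at the mother centriole and restrains cilium formation, had 27.5, 26.0 and 27.0 CPM in mNS libraries and 14.9, 11.4 and 14.4 CPM in GL261 libraries, and rose (0.94 ± 0.12, adjusted p 0.000133). Kif7, a regulator of hedgehog signalling at the cilium tip, had 23.4, 24.7 and 24.0 CPM in mNS libraries and 24.7, 27.3 and 27.2 CPM in GL261 libraries, and was not called (-0.13 ± 0.09, adjusted p 0.221). Kif6 was not called (-0.17). Kif26b fell by 1.57 ± 0.21 (adjusted p 0.000207), but on 7 reads over the mNS libraries and 104 over the GL261 libraries. Its fold of mNS over GL261 was 0.0693, and 0.0434 without the passage 77 mNS library.

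Of the 4 kinesin light chains, which join conventional kinesin to cargo, Klc4 (0.75 ± 0.13, adjusted p 0.000888) and Klc2 rose. The share called was 50%, against 64.3% of all tested genes. Klc2 had 14.2, 14.3 and 14.8 CPM in mNS libraries and 8.50, 9.94 and 10.3 CPM in GL261 libraries (0.55 ± 0.11, adjusted p 0.00221). Klc1 had 70.4, 73.3 and 76.2 CPM in mNS libraries and 81.3, 77.7 and 80.3 CPM in GL261 libraries. Its groups did not overlap, yet the difference of -0.12 ± 0.06 was not called (adjusted p 0.130), nor was that of Klc3 (0.30, adjusted p 0.0563). For Klc3 the adjusted p was 0.0486 without the passage 77 mNS library and 0.0428 without the passage 17 GL261 library.

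The 9 cytoplasmic dynein subunits gave 3 that rose and 4 that fell, with a median of -0.12. The share called was 77.8%, against 64.3% of all tested genes, of which 32.2% were called higher and 32.1% lower. The heavy chain Dync1h1, which holds the motor, had 1016, 969 and 993 CPM in mNS libraries and 788, 772 and 825 CPM in GL261 libraries (0.32 ± 0.05, 1.25-fold higher, adjusted p 0.000823). The libraries were separate although the change was small. Dynlt3, a light chain that binds cargo, had 129, 137 and 141 CPM in mNS libraries and 65.8, 70.9 and 58.8 CPM in GL261 libraries (1.05 ± 0.08, 2.08-fold higher, adjusted p 8.05e-06). The light intermediate chains differed, with Dync1li1 higher (0.32, adjusted p 0.00284) and Dync1li2 lower (-0.19, adjusted p 0.0317). The call of Dync1li2 was lost without passage 77 or 85 of mNS or passage 17 or 33 of GL261, at adjusted p between 0.0635 and 0.108, and in 7 of 18 refits in all, with the highest adjusted p, 0.235, after quantile normalisation.

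The intermediate chain Dync1i2, which binds dynactin, had the largest fall among the dynein subunits (-0.92 ± 0.06, adjusted p 3.37e-06), with means of 155 ± 8.34 CPM in mNS cells and 294 ± 8.48 CPM in GL261 cells (SD, n = 3 each). The light chain Dynlrb1 fell by 0.83 (adjusted p 1.4e-05). Dynll1, a light chain found in many complexes besides dynein, had 227, 239 and 224 CPM in mNS libraries and 288, 349 and 327 CPM in GL261 libraries (-0.48 ± 0.08, adjusted p 0.00069). Dynll2 (-0.12) and Dynlt1a (0.23), which shares 50.8% of its windows with near-identical copies, were not called.

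In dynactin, the activator of dynein, the differences were small. Dctn4, of the pointed-end complex, had 132, 124 and 118 CPM in mNS libraries and 149, 177 and 173 CPM in GL261 libraries (-0.41 ± 0.08, adjusted p 0.00195), and its neighbour in the complex Dctn5 fell by 0.30 (adjusted p 0.0206). Without passage 77 or 85 of mNS or passage 17 of GL261 the adjusted p of Dctn5 was between 0.0514 and 0.0722, and on a common sum of the columns it was 0.0788. Dctn6, another pointed-end subunit, rose by 0.50 ± 0.09 (adjusted p 0.00144). Dctn2, the subunit also called dynamitin, had 154, 160 and 168 CPM in mNS libraries and 189, 172 and 182 CPM in GL261 libraries (-0.17 ± 0.06, adjusted p 0.0401). That call was lost in 10 of 19 alternative settings, among them those without passage 72 or 77 of mNS or passage 17 or 34 of GL261, with adjusted p between 0.00623 and 0.293 over all of them. The large subunit Dctn1 (0.13) and Dctn3 (0.11) were not called.

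Stathmins, which bind tubulin dimers and promote shrinkage, moved in opposite directions. Stmn4, a stathmin of the nervous system, had 30.9, 35.4 and 25.3 CPM in mNS libraries and 4.47, 2.32 and 4.05 CPM in GL261 libraries. All mNS libraries lay several times above all GL261 libraries (2.79 ± 0.20, 8.46-fold higher, adjusted p 5.9e-06). Stmn1, the widely expressed stathmin of dividing cells, had 29.4, 29.5 and 27.8 CPM in mNS libraries and 39.7, 53.2 and 52.0 CPM in GL261 libraries (-0.71 ± 0.12, adjusted p 0.000759). The GL261 library of passage 17 was the lowest of its group for Stmn1, and 26.1% of the gene's windows occur in a pseudogene. The neuronal genes Stmn2 and Kif1a were not listed.

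The largest rise among all members was in a protein that coats microtubules, Map7d2 (chromosome X, 159414572 to 159498757, plus strand). It had 32.6, 26.4 and 25.5 CPM in mNS libraries and 3.06, 2.17 and 2.89 CPM in GL261 libraries (2.98 ± 0.15, 10.4-fold higher, adjusted p 5.7e-07). Its relative Map7, which in flies and mammals recruits conventional kinesin to microtubules, had 18.2, 12.5 and 13.2 CPM in mNS libraries and 2.09, 1.94 and 1.66 CPM in GL261 libraries (2.42 ± 0.16, 7.72-fold higher, adjusted p 3.32e-06). A further member of the family, Map7d1, fell (-0.27 ± 0.08, adjusted p 0.0192). That call was lost without passage 77 or 85 of mNS or passage 34 of GL261, at adjusted p between 0.0529 and 0.0686, and on a common sum of the columns, at 0.0891.

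Mapt, which encodes tau (chromosome 11, 104231390 to 104332090, plus strand), had 63.9, 63.6 and 63.9 CPM in mNS libraries and 13.6, 12.8 and 10.5 CPM in GL261 libraries. The mNS libraries agreed to within 1 CPM, and the difference of 2.29 ± 0.10 was a 5.18-fold rise (adjusted p 3.25e-07). Tau and Tubb3, both used as neuronal markers, thus moved in opposite directions between the same libraries. Levels per kilobase were 8.47 ± 0.0236 CPM per kb for Mapt in mNS cells and 1.63 ± 0.208 in GL261 cells (SD, n = 3 each), and for Tubb3 4.74 ± 2.37 in mNS cells and 125 ± 6.28 in GL261 cells.

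The Map1 and Map4 genes, which encode larger structural proteins, fell or were not called. Map1b, an early neuronal protein, had 420, 407 and 389 CPM in mNS libraries and 354, 440 and 441 CPM in GL261 libraries, with overlap and no call (-0.02 ± 0.09, adjusted p 0.879). Map4, the main form outside neurons, had 244, 251 and 252 CPM in mNS libraries and 321, 272 and 286 CPM in GL261 libraries (-0.23 ± 0.07, adjusted p 0.0188). The call of Map4 was lost on rescaling to a common sum, on quantile normalisation, without the passage 77 mNS library and at a threshold of 0.01, with adjusted p between 0.00375 and 0.186 over all settings. Map1a (-0.71, adjusted p 0.000938) and Map1s (-0.48, adjusted p 0.00215) fell. Of the end-binding proteins, which track growing ends, Mapre1 fell by 0.26 (adjusted p 0.00479, and 0.0525 after quantile normalisation, which ended the call), Mapre2 rose by 0.40 and Mapre3 was not called (0.18).

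**Figure D5:**
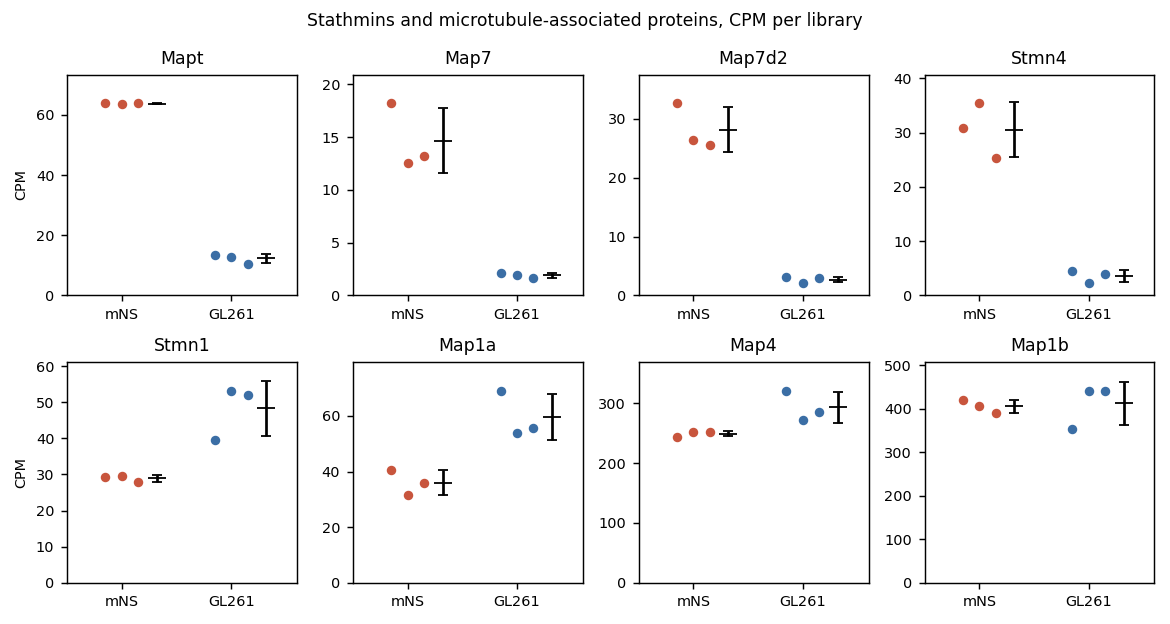
Level of 8 microtubule-associated proteins and stathmins in every library in CPM, each panel with its own axis from 0; points are libraries, with mNS left and GL261 right, and bars the mean ± SD of 3 libraries. The top row holds the genes that rose most (Mapt, Map7, Map7d2 and Stmn4), the bottom row genes that fell (Stmn1, Map1a, Map4) and Map1b, whose groups overlap.

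Genes that act on tubulin without being members were read from 4 further lists. Of the 21 tested enzymes and chaperones that fold or modify tubulin, 11 rose and 3 fell, with a median of 0.44. The share called, 14 of 21, was near the 64.3% of all tested genes, of which 32.2% were called higher. The call of Agbl5 was lost on leaving out any 1 library except the passage 17 GL261 library. Ttll3 gained a call without that library or without the passage 85 mNS library. Vash1, which cuts the last tyrosine from alpha-tubulin, had 193, 188 and 153 CPM in mNS libraries and 3.50, 1.87 and 1.59 CPM in GL261 libraries (5.79 ± 0.20, 76.8-fold higher, adjusted p 7.96e-08). Its relative Vash2 rose by 1.54, while Svbp, the partner both need, listed under the older symbol Ccdc23, fell by 0.58. Ttl, the ligase that puts the tyrosine back, also rose, by 1.03 (adjusted p 1.32e-05). The tubulin deacetylase Hdac6 rose by 1.83 (adjusted p 5.64e-07) and Ttll12, of the ligase family, by 1.00. The acetyltransferase Atat1 rose by 0.67.

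Of the 29 tested genes of nucleation, severing and plus-end tracking, 8 rose and 10 fell (median 0.02), again near the shares of all tested genes. On leaving out some libraries the calls of Tubgcp5 and Katnal1 were lost, and Mzt2, Katnal2, Clasp2 and Ckap5 gained one. The largest falls were Tacc1 (-3.82), of a family that binds the microtubule polymerase, and Clip1 (-3.08), a plus-end tracking protein. Tacc1 had 14.5, 24.4 and 29.8 CPM in mNS libraries and 346, 322 and 304 CPM in GL261 libraries, and Clip1 had 25.0, 19.8 and 16.5 CPM in mNS libraries and 183, 170 and 181 CPM in GL261 libraries. Both were lower in every mNS library by a wide margin. Clip3 (-1.72), Tacc2 (-1.63) and Cdk5rap2 (-1.15), a centrosomal recruiter of gamma-tubulin, fell, and the plus-end protein Slain1 rose by 2.19. The fold of Slain1 was 6.66, and 13.0 without the passage 17 GL261 library.

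Of the 28 tested adaptors and regulators of motors, 11 rose and 9 fell (median 0.06). Across all tested genes 32.2% were called higher and 32.1% lower. The call of Hook2 was lost on leaving out any 1 library. Those of Hook3, Actr10, Ccdc64, Ktn1 and Capza2 were lost on leaving out some libraries. Capza1 gained a call without the passage 72 mNS library. The dynein adaptor Hook1 fell by 2.47 (adjusted p 3.01e-07), the kinesin adaptor Fez1 rose by 1.81 (adjusted p 0.000462) and the dynein adaptor Ninl rose by 1.27 (adjusted p 4.6e-06). Of the 19 tested structural proteins and their kinases outside the symbol rule, 9 rose and 7 fell (median 0.23), against 32.2% and 32.1% of all tested genes. The calls of Mark2, Mark3, Mark4 and Tppp were lost on leaving out some libraries. The kinase Mark1, which phosphorylates tau and Map4 to release them from microtubules, fell by 3.82, Mid1, a ubiquitin ligase on microtubules, by 3.08, Dclk1, a doublecortin-like kinase, by 1.94, and Map6, known for cold-stable microtubules, by 1.52. Map6d1 (1.81) and Tppp3 (1.44) rose. The mNS libraries held 0, 0.155 and 1.13 CPM of Mark1, against 11.03, 23.6 and 22.5 CPM in GL261 libraries, and its fold of mNS over GL261 was 0.0225, or 0.00406 without the passage 85 mNS library. For Map6d1, at under 4 CPM in every library, the fold was 11.04, and 24.1 without the passage 33 GL261 library.

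Markers of other cell types that a glioma culture could hold were few. Of 8 macrophage and microglia markers 2 were listed, with a sum between 6.87 and 9.51 CPM in mNS libraries and between 4.05 and 5.44 CPM in GL261 libraries, and they went opposite ways. Cd68, a lysosomal protein, had 9.44, 8.04 and 6.80 CPM in mNS libraries and 3.13, 2.84 and 2.89 CPM in GL261 libraries, and rose by 1.19 ± 0.14 (adjusted p 0.000118). Csf1r, a receptor of macrophages, had 0.0755, 0 and 0.0708 CPM in mNS libraries and 2.31, 1.57 and 1.16 CPM in GL261 libraries. It lay below the filter and was not tested, and its groups did not overlap. Ptprc, Itgam, Aif1 and Cx3cr1 were among those not listed. Of 6 endothelial markers only Flt1 was listed, and it was not called (-0.04).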

How the data were processed

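Stranded single-read libraries of total RNA without ribosomal RNA were sequenced for 6 samples of 2 groups, per the labels' protocols. Tools are named without roles: mm10, edgeR 3.4.2, HTSeq 0.5.3p9 and TopHat2 (version 2), per the submitters' processing notes. The deposited values are a normalised signal, CPM with TMM factors by the authors, per the series text and the values. They came out as whole reads in 100% of cases within 0.001 reads. The authors' filter on low genes is not stated in the sources used here.

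Members were matched by symbol, all 82 to GENCODE M21, and sorted by role. Members, roles and lists were chosen with earlier results of these data known. Values in every library are given for called members with a log2 difference of at least 1, separate groups and 5 CPM in the higher group, the 2 most abundant members of each role, and fixed genes (37 members); of each list, up to 6 called genes with a difference of at least 1. Some list and marker genes outside this rule were named after their values, or changes of call on leaving out 1 library, were seen.

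The test was limma 3.58.1 (R 4.3.3; lmFit and eBayes with trend) on log2(CPM + 1) for genes averaging 1 CPM or more. Recovered reads were tested with edgeR 4.0.16 (quasi-likelihood and exact) and DESeq2 1.42.0, which called 63.7%, 64.2% and 61.2% of genes. Other alternatives were pseudocounts of 0.5 and 0.1, filters, 3 rescalings, no trend, array weights, a threshold of 0.01 and leaving out each library. The scripts were tested on simulated data. Levels per kilobase used the union of exons. Windows, alignments and motifs used Biopython 1.88 and Python 3.11.15 with pandas 2.3.3, numpy 2.4.6 and matplotlib 3.10.9. Members on chromosome 18 are given without sequence. The 1 member below the filter is not reported here.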

Additional observations from a re-analysis of the deposited data

How the results depend on the processing

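Each of 37 members with values in every library was recomputed under 19 other settings, and 675 of the 703 results kept their direction and their side of the threshold. Members called ranged from 20 to 24 higher and 29 to 39 lower, mitotic kinesins from 8 to 9 lower and 0 higher, and transport kinesins from 6 to 8 higher and 3 to 4 lower, the runs without 1 library included. Among those 37, Dctn2 and Map4 lost the call in some settings (14 results), and 5 results gained one; of the other called members, Dync1li2, Dctn5, Map7d1 and Mapre1 lost it in some. The direction turned for 4 members, none of them called: Kif11 was 0.036 on a common sum and 0.061 after quantile normalisation; Map1b was 0.074 and 0.17 under the same settings, and between -0.12 and 0.037 on leaving out 1 library; Tubb5 was 0.033 after quantile normalisation; Tubg1 was between -0.030 and 0.25 on leaving out 1 library. The cause was not tested. The share of Tubb3 in the beta-tubulin level, -6.95 percentage points, was -5.82 with the longest transcript as length and -5.08 as CPM without length. Leaving out 1 library gave 26.4 to 28.4 points for the share of Tuba1a, -7.20 to -6.51 for Tubb3 and 9.66 to 11.1 for Tubb5. Rescaling moved the median of all genes to 0.08 (common sum), -0.03 (median gene) and -0.01 (quantile). With array weights the weights did not fully converge. No paired analysis was possible because the labels give no replicate numbers that the groups share. Genes with group means under 3 CPM, such as Kif26b and Kifc2, rest on few reads, and the reads shared by near-identical tubulin genes limit the split among them.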
